A study of Arabidopsis thaliana with 4 samples.

Results

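Nuclei of Arabidopsis root tips were chosen by how open their chromatin was at 13 marker genes of the endodermis, and 1445 of 28869 nuclei were taken. Barcodes with 3000 to 100000 ATAC counts and 1000 to 25000 RNA counts were kept as nuclei. The study kept fewer nuclei, with quality filters that were not applied here. The score of a nucleus was the share of its ATAC counts that fell in peaks overlapping the body of a marker gene or the 2 kb upstream of it. The 5% of nuclei with the highest score in each library were taken, which gave 212 of 4229 and 382 of 7628 nuclei in the controls (replicates 1 and 2) and 431 of 8613 and 420 of 8399 in the stress libraries (replicates 1 and 2). Values below follow this order of libraries where 4 are given. They are called the chosen nuclei below, and the remaining 27424 are the other nuclei. Whether they are endodermis was checked on measures that took no part in the choice, and those measures did not bear the name out.

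The endodermis is the inner layer of the root ground tissue, around the stele. Its cells seal the wall space with the Casparian strip, a band of lignin placed by the CASP membrane proteins and PER64 under the transcription factor MYB36, and later with lamellae of suberin, a polyester made with GPAT5 and ASFT. SCR is a transcription factor that specifies the layer, and the peptide receptor SGN3 with the kinase SGN1 (PBL15) watches whether the strip is closed. Suberin deposition in roots is known to respond to abscisic acid (ABA), the hormone of water deficit.

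All plants were Col-0, the unmodified reference accession. The control group had 2 libraries and the osmotic stress group 2 libraries, and the study applied the stress with sorbitol in the growth medium. Nuclei from 5 mm root tips were put into droplets, and both open chromatin (by ATAC, in which a transposase cuts accessible DNA) and RNA were read from every nucleus. The study calls the replicates biological, and the labels do not say whether they came from separate plantings, so p-values measure the spread between these libraries. ATAC totals were 47853119 to 75473335 counts per library. Control replicate 1 stood apart with the fewest nuclei and a median of 6830 ATAC counts per nucleus, against 5492 to 5645 in the other 3 libraries. It also had the largest share of counts in regions that match organelle DNA, as given with the results it touches. Pairs of libraries shared 57 to 118 barcodes among the kept nuclei and at most 1 among the chosen ones.

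The choice rested on few counts per nucleus. The median chosen nucleus had 8 marker counts and the median other nucleus 3. The score needed was 0.126% and 0.148% in the controls and 0.150% and 0.151% in the stress libraries. In control replicate 1, the chosen nucleus nearest the threshold had 6 marker counts of 4757 and the nearest other nucleus 4 of 3172. The exact 95% interval of the former's share was 0.0463 to 0.274%, which covers counting error only and spans both sides of the threshold. It takes the counts as independent, although they usually come in pairs from 1 DNA fragment, so it is too narrow. The same pair was 6 of 4048 against 6 of 4055 counts in control replicate 2. In the stress libraries the pairs were 10 of 6657 against 7 of 4661 and 8 of 5297 against 7 of 4643. Nuclei on either side of the threshold thus differed by less than their counting error. For the spread over all kept nuclei, marker signal was read as fragments in place of counts. The variance of the marker fragments was 1.07, 1.06, 1.12 and 1.12 times what counting alone gives, and 1.01 to 1.24 times for the other gene lists. The marker signal in fragments thus varied little beyond counting noise.

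Of the 13 markers, 7 had a peak within reach in all 4 libraries (CASP2, CASP4, MYB36, PER64, SCR, SGN1 and ASFT). CASP1 had one in the control libraries only, GPAT5 in control replicate 2 only, and LTPG20, a lipid transfer protein, in every library but control replicate 1. LTPG15 and the peroxidase PER9 had none in any library, so they gave nothing to the score. Of the 10 marker regions shared by all libraries, 3 had the marker itself as the nearest gene start (MYB36, PER64 and ASFT) and 7 lay nearer to another gene, such as the ribosomal protein gene RPL3B beside SGN1. Since genes lie close together in this genome, an open region in a marker's window need not belong to the marker. The rule itself fixed the marker level of the chosen nuclei, at 2.76 to 4.35 times the level of the other nuclei for each marker and library, and that fold is a description only.

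The region upstream of MYB36 had the largest difference among the 10 shared marker regions when its marker was left out of the choice, so its central 200 bases are printed (chr5:23332420-23332619, TAIR10.1 from RefSeq, plus strand, 5′ to 3′). Capitals in this and the later sequences mark ACGTG on either strand, the core of the element that ABA-responsive bZIP factors bind, and here there is none. Of the 18340 regions shared by all libraries, 26.9% hold ACGTG in their central 200 bases.
MYB36: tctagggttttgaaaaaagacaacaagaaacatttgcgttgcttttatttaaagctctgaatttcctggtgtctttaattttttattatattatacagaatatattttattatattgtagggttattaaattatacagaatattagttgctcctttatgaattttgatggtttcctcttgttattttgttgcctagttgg

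Each marker in turn was left out of the score, the nuclei were chosen again, and the left-out marker was read in them. At the MYB36 region (chr5:23332047-23332992) the chosen nuclei had 34.95, 34.4, 66.1 and 52.5 CPM (ATAC counts scaled to a common library total with TMM factors) in control replicates 1 and 2 and stress replicates 1 and 2. The other nuclei had 31.6, 32.7, 40.4 and 36.5 CPM. The excess was therefore small in both control libraries and larger in both stress libraries. The log2 fold was 0.40 (SE 0.13, adjusted p = 0.185, higher in 4 of 4 libraries), which did not pass the threshold of 0.05. The region read for CASP2, at the start of the neighbouring gene AT3G11560, had a log2 fold of 0.30 (SE 0.12, adjusted p = 0.316, higher in 4 of 4 libraries). The remaining 8 regions lay between −0.17 (SCR) and 0.23 (one of 2 regions of SGN1). Among them was a second MYB36 region (chr5:23336566-23337419), whose nearest gene start is that of AT5G57625. It went the other way, at −0.16 (SE 0.13), and was lower in the chosen nuclei in 4 of 4 libraries.

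None of the 10 left-out regions passed the threshold (0 of 10), and 2 had an unadjusted p under 0.05 in edgeR's quasi-likelihood test. In the same 7 fits, 0.136, 0.142, 0.175, 0.311, 0.426, 0.458 and 0.616% of all regions passed. The left-out markers with a peak in a library were also summed, in CPM without TMM factors. Chosen nuclei had 0.989, 1.10, 1.08 and 1.14 times the summed CPM of the other nuclei, in the library order used above. The markers in the sum differed between libraries. CASP1, GPAT5 and LTPG20 had no peak in some libraries and could not enter the fit. Their values are also given without TMM factors. In control replicate 1 CASP1 had 47.3 CPM in the chosen nuclei against 50.2 in the others. In control replicate 2 CASP1 had 33.2 against 40.7 CPM, and GPAT5 had 43.3 against 38.2 CPM. LTPG20 had 14.6 CPM in the chosen nuclei of control replicate 2 against 14.8 in the others. In stress replicate 1 its values were 36.9 against 17.9 CPM (77 counts in chosen nuclei), and in stress replicate 2 they were 33.9 against 20.1 CPM (69 counts). A marker locus was thus little more open in nuclei chosen by the remaining markers. LTPG20 in the stress libraries lay above the range of the summed markers, and CASP1 in the control libraries lay below it. The sums of those libraries include these markers themselves.

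**Figure D1:**
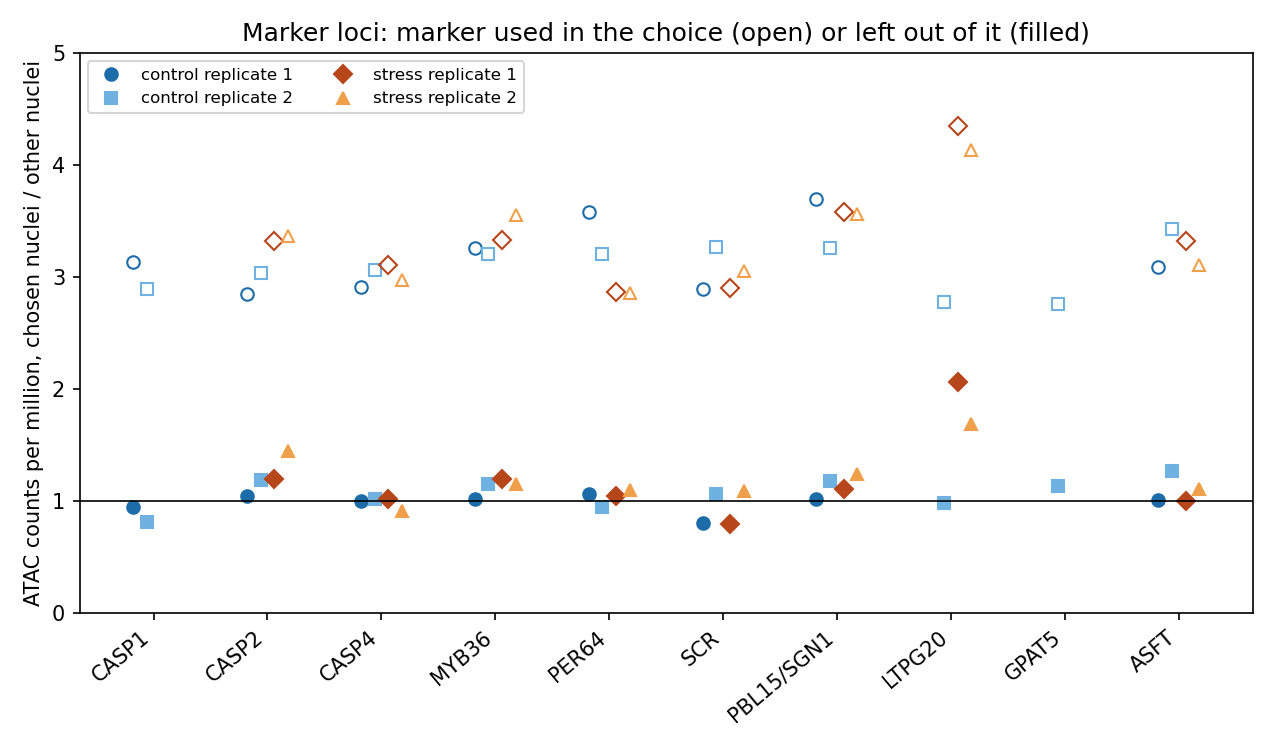
ATAC level (CPM without TMM factors) in chosen nuclei divided by the level in the other nuclei (y axis, linear, 1 = no difference) for each marker with a peak, 1 point per library. Open points show the markers as used in the choice, fixed at 2.76 to 4.35 by the rule. Filled points show each marker left out of it. Most of these lie near 1, from 0.795 (SCR) to 2.07 (LTPG20), both in stress replicate 1.

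Depth was not independent of the choice, since the score divides marker counts by the ATAC count of the nucleus, so a nucleus with few counts passes more easily. The depths are therefore a description, with no test. The median ATAC count of the chosen nuclei was 4757, 4394, 4211 and 4079 in control replicates 1 and 2 and stress replicates 1 and 2, against 6990, 5742, 5570 and 5700 in the other nuclei. The means over libraries were 4360 ± 294 and 6000 ± 664 counts (SD, n = 4), lower in 4 of 4 libraries. Median RNA counts were 3757 ± 123 in the chosen and 4687 ± 261 in the other nuclei, and also lower in 4 of 4 libraries. The share of ATAC counts at gene starts was 80.2% ± 0.839 and 80.5% ± 0.844. To set depth aside, each chosen nucleus was also compared with the 10 other nuclei of its library nearest in ATAC count. These depth-matched nuclei had a mean of library medians of 4436 ATAC counts, but 4257 RNA counts, above the chosen nuclei in 4 of 4 libraries.

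**Figure D2:**
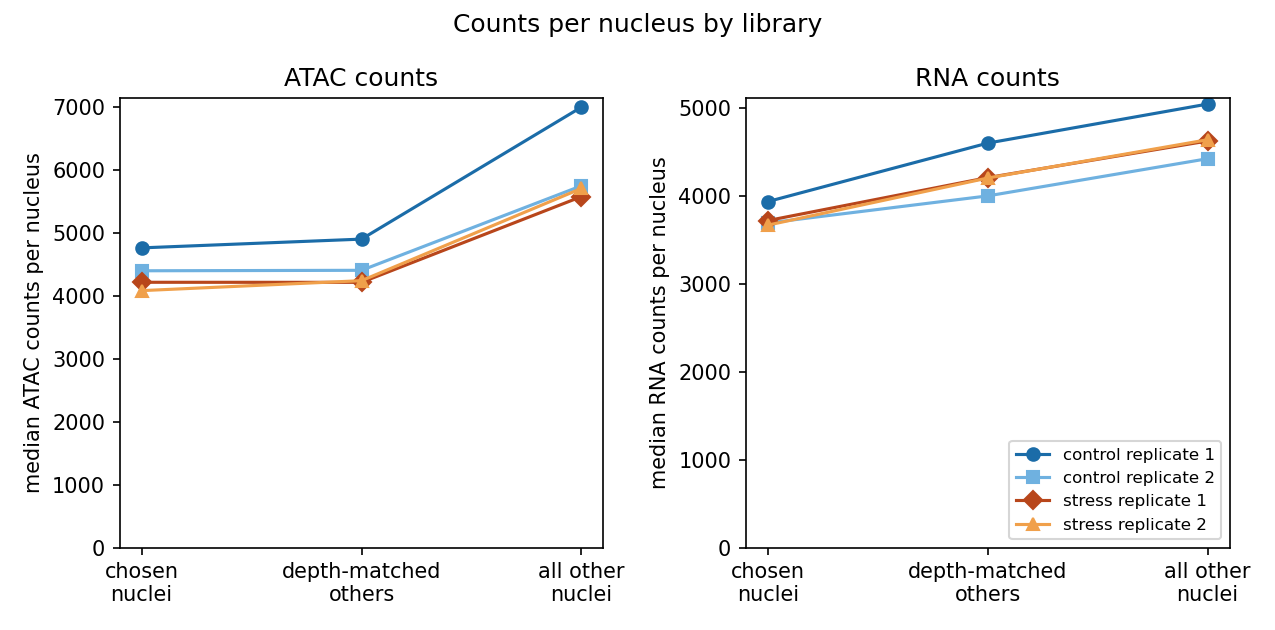
Median ATAC counts (left) and RNA counts (right) per nucleus, with 1 line per library, for the chosen nuclei, the depth-matched other nuclei and all other nuclei. All 4 lines lie lower for the chosen nuclei (4079 to 4757 ATAC counts) than for all other nuclei (5570 to 6990), a difference tied to the score, which divides by the ATAC count, and the matched nuclei meet them in ATAC but not in RNA.

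Over regions outside the marker windows, the chosen nuclei differed from the other nuclei at few places. Of 18330 regions, 19 were more open in the chosen nuclei (0.104%) and 18 less open (0.0982%), 37 in all (0.202%). The 19 higher regions had log2 folds from 0.36 to 0.72 with a median of 0.55, and the 18 lower ones from −0.46 to −0.86 with a median of −0.54, all under 2-fold. Among the higher regions 10 lay at a gene start, 7 upstream and 2 outside genes, and among the lower ones 8 lay at a start, 4 upstream, 4 in a gene body and 2 outside, while 67.7% of all regions lay at a start. Being higher in 4 of 4 libraries was itself common, at 8.64% of all regions, and being lower in 4 of 4 held for 9.42%.

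MIR166f encodes a microRNA of a family that restrains HD-ZIP III transcription factors in the radial pattern of the root, and the endodermis is known to make members of that family. Its upstream region (chr5:17514990-17515923) had 39.95, 61.4, 64.6 and 69.7 CPM in the chosen nuclei and 37.7, 36.6, 45.2 and 42.3 CPM in the others, in the library order used above. It was higher in 4 of 4 libraries, narrowly in control replicate 1 and by more in the remaining 3. The log2 fold was 0.55 (SE 0.12, adjusted p = 0.0139), and 0.49 against depth-matched nuclei (adjusted p = 0.0242). It stayed higher but lost the call when control replicate 2 (adjusted p = 0.131), stress replicate 1 (0.104) or stress replicate 2 (0.171) was left out. The depth-matched call needed the regions that match organelle DNA in the fit, since without them no region passed there (0 of 18211). Its central 200 bases (chr5:17515357-17515556, plus strand) hold no ACGTG. They are shown because it is the named regulatory gene that passed against both comparison groups with all regions in the fit.
MIR166f: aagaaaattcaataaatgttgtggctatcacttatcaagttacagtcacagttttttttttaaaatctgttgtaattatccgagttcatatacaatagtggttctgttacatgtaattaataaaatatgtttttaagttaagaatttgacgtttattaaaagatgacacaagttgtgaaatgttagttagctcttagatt

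Another upstream region that passed in both comparisons, with the same limit, was that of AT3G30165 (chr3:11798392-11799322). It had 71.0, 65.8, 55.7 and 83.1 CPM in the chosen nuclei and 42.6, 43.7, 50.2 and 47.2 in the others. Its groups did not overlap, and the log2 fold was 0.58 (SE 0.11, adjusted p = 0.00465) and 0.48 against depth-matched nuclei (adjusted p = 0.0122). Leaving out stress replicate 2 ended that call (log2 0.48, adjusted p = 0.131). The region upstream of AT4G05095 (chr4:2615754-2616658) had 46.2, 57.6, 60.5 and 62.3 CPM against 31.2, 33.9, 43.7 and 42.6, with log2 folds of 0.59 and 0.56 (adjusted p = 0.0107 and 0.00538), and its adjusted p was 0.0959 when control replicate 2, 0.076 when stress replicate 1 and 0.0868 when stress replicate 2 was left out. It is the neighbour of the region upstream of MYB74 that rose under stress, given below. The remaining 9 of the 12 named higher regions passed against all other nuclei but not against depth-matched ones. They lay at PSK3, a precursor of the growth peptide phytosulfokine (log2 0.61), at the RING finger protein genes AT5G42200 (0.61) and AT5G17600 (0.55), at the kinase gene AT2G16750 (0.58), at AT5G53710 (0.72), at the pseudogenes AT1G47860 (0.59) and AT2G19200 (0.57), at the long non-coding RNA gene AT2G08070 (0.55), and outside genes at chr1:26168644-26169418 (0.62). AT5G42200 lies within 10 kb of PER64, itself one of the markers.

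Among the regions less open in the chosen nuclei, the start of AT1G51860, a leucine-rich repeat receptor kinase gene, had the smallest adjusted p. Its region (chr1:19261429-19262376) had 22.2, 25.9, 41.5 and 34.8 CPM in the chosen nuclei and 41.6, 50.1, 62.9 and 62.2 CPM in the others. The chosen nuclei were lower in 4 of 4 libraries (log2 −0.80, SE 0.13, adjusted p = 0.000144), but the log2 fold was −0.44 against depth-matched nuclei and did not pass (adjusted p = 0.242). Of the 18 named regions it was the 1 whose call against all other nuclei held with each library left out in turn (adjusted p = 0.000813 to 0.0241). Its central bases (chr1:19261803-19262002, plus strand) are shown as those of the region with the strongest call, and hold 1 ACGTG.
AT1G51860: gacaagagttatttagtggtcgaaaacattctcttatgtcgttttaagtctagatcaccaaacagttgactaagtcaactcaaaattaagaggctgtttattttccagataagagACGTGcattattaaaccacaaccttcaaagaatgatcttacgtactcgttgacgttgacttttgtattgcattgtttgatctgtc

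The other named lower regions were at AT2G04100, a MATE family transporter gene (−0.86), upstream of AT4G13442 (−0.83) and of AT4G10370 (−0.74), in the body of AT2G14760, which encodes the bHLH factor RSL3 of the root hair programme (−0.73), and outside genes at chr2:1381324-1382189 (−0.78), near AT2G04100. RSL3 had 24.0, 27.2, 21.9 and 29.9 CPM in the chosen nuclei against 34.7, 39.3, 45.9 and 50.2 in the others (adjusted p = 0.00925), and a log2 fold of −0.39 against depth-matched nuclei (adjusted p = 0.503). None of the 6 named lower regions passed against depth-matched nuclei (0 of 6), and 3 of the 12 higher ones did.

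**Figure D3:**
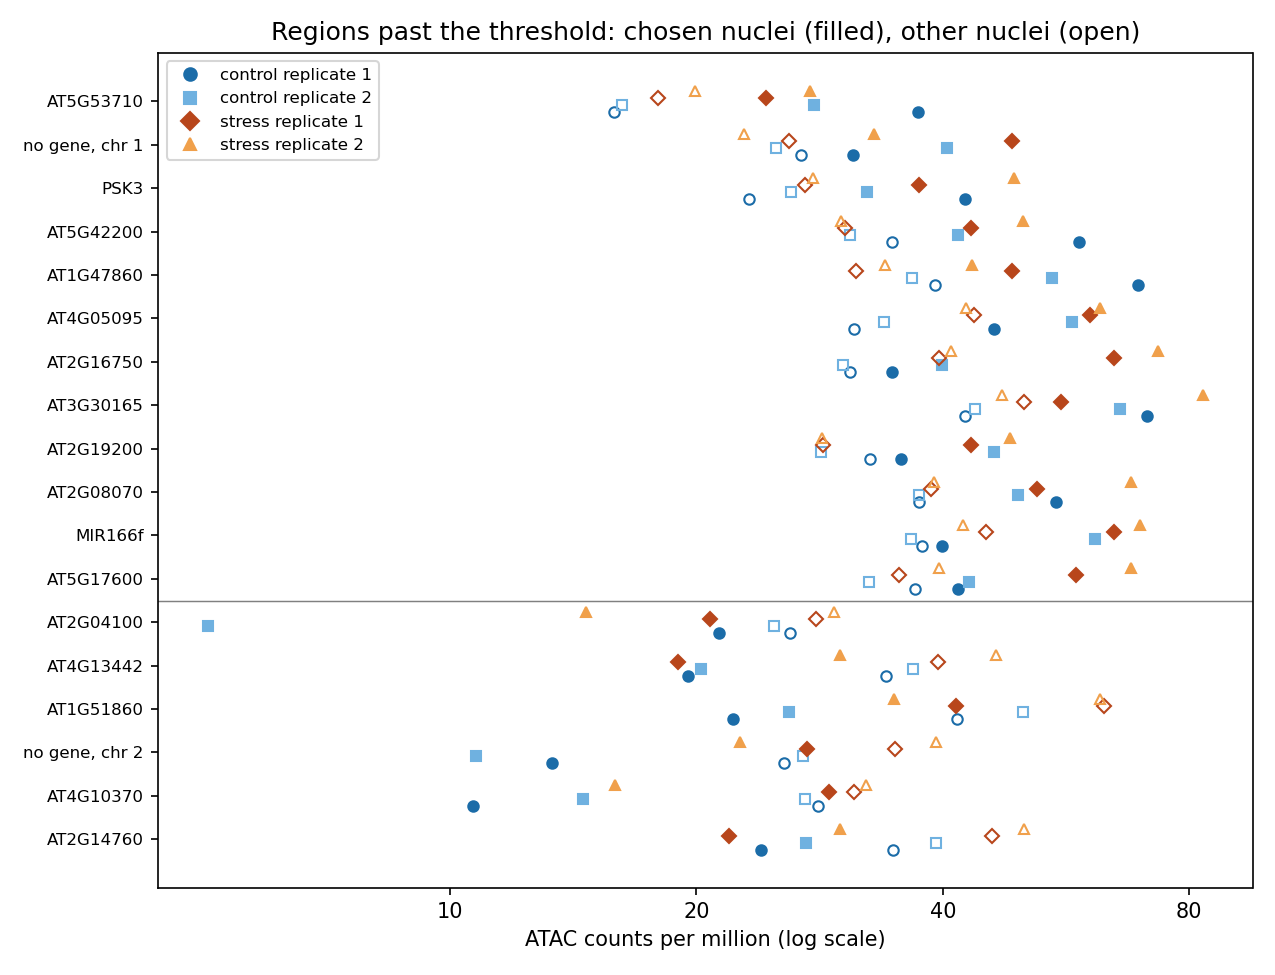
ATAC level in CPM (x axis, log scale) in chosen and other nuclei at the 12 higher and 6 lower named regions, 1 point per library and group. In each of the regions the chosen nuclei lay on one side of the other nuclei within all 4 libraries, as the rule for naming them required.

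The depth-matched nuclei are part of the other nuclei and the chosen nuclei stay the same, so the 2 comparisons are not independent. All 37 called regions kept their sign against depth-matched nuclei (37 of 37), but 9 of the 37 passed the threshold there. The median log2 folds shrank from 0.55 and −0.54 to 0.40 and −0.40. That comparison called 98 regions (0.535%), 9 higher (0.0491%) and 89 lower (0.486%), and 83 of the 89 lower ones were regions matching organelle DNA, with a median log2 of −0.36. With those regions left out, the comparison with all other nuclei called 52 regions (0.286%, 26 in each direction) and the depth-matched one called none (0 of 18211, with 1300 at an unadjusted p under 0.05 in edgeR's test). The count of 37 also moved with single libraries: leaving out control replicate 1 gave 70 and control replicate 2 gave 18, and leaving out stress replicate 1 gave 5 and stress replicate 2 gave 7. Without pairing the chosen and other nuclei of a library in the fit it was 0, with 1548 at an unadjusted p under 0.05.

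RNA differed more often than open chromatin. Of 19649 RNA features, which carry no gene names in the tables used here, 406 were higher (2.07%) and 211 lower (1.07%) in the chosen nuclei, 3.14% in all. Median log2 folds were 0.60 and −0.45, the extremes 2.12 and −2.15, and 69 higher and 9 lower features exceeded 2-fold. Against depth-matched nuclei 354 of the 406 higher and 35 of the 211 lower features passed again in the same direction. They were among 728 higher (3.91%) and 321 lower (1.72%) of 18633, or 5.63% in all. As for regions, that comparison is not independent of the first. The count over all other nuclei was 617, and 347 with stress replicate 2 left out. RNA took no part in the score, but whether the features that rose are endodermal genes could not be read without names, and the lower RNA depth of the chosen nuclei moved with this result. Its part was not tested.

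Gene lists were read in gene windows, the summed counts of the regions over a gene's body and 2 kb upstream. Of 23624 windows, 31 were higher (0.131%) and 22 lower (0.0931%) in the chosen nuclei, 53 in all (0.224%), and none belonged to any list of root cell types or pathways. Against depth-matched nuclei 17 were higher (0.072%) and 151 lower (0.639%), 0.711% in all, again none from a list. The count of 53 fell to 20 with control replicate 1 left out, to 3 with control replicate 2, to 4 with stress replicate 1 and to 20 with stress replicate 2. Windows higher in 4 of 4 libraries made up 9.01% of all, and those lower in 4 of 4 made up 9.49%. Of 24 further endodermis genes, kept out of the score, 13 could be tested, and 8 were higher by sign with a median log2 of 0.04, against 0.00 over all genes, of which 50.4% were higher. Their regions held 873 to 923 CPM (here without TMM factors) in the chosen nuclei and 879 to 909 in the others, overlapping ranges. The marker regions themselves held 1396 to 1531 and 452 to 469 CPM on the same scale, a gap that the rule made.

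Among the 9 testable Casparian strip genes, 6 were higher by sign and the median log2 was 0.04. The receptor gene SGN3 had the largest value (0.24, SE 0.14, adjusted p = 0.508), and EXO70A1, an exocyst subunit that positions CASP1, was higher in 4 of 4 libraries but by 0.07. CASP5 was at −0.02 and RBOHF, the NADPH oxidase of the strip, at 0.05. These genes were close to level between chosen and other nuclei.

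Among the 9 testable suberin genes, 6 were higher by sign, with a median log2 of 0.04. KCS2, which elongates the fatty acids of suberin, had 28.7 ± 5.38 CPM in the chosen nuclei and 22.1 ± 0.496 in the others (SD, n = 4), higher in 4 of 4 libraries (log2 0.38, SE 0.12, adjusted p = 0.152). KCS1, an elongase of the same family, was lower in 4 of 4 (47.0 ± 10.4 against 55.2 ± 6.24 CPM, log2 −0.23, SE 0.09, adjusted p = 0.238). Neither passed, and the 2 elongases pointed in opposite directions. CYP86B1 (0.21) and the acyltransferase gene FACT (0.11) were on the higher side, and the transporter gene ABCG2 (−0.11) on the lower.

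Of the 5 testable ground tissue regulators, 4 were higher by sign, with a median of 0.03. NUC, a zinc finger factor that works with SCR, had 35.5 ± 3.20 CPM against 27.5 ± 1.30 (SD, n = 4), higher in 4 of 4 libraries (log2 0.36, SE 0.11, adjusted p = 0.119). MGP, another zinc finger factor of the same circuit, was lower in 4 of 4 (log2 −0.18, adjusted p = 0.473). Neither passed the threshold.

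In the lists of other cell types no gene passed either. The median log2 was −0.04 for cortex, 0.06 for stele, 0.03 for xylem, 0.01 for phloem, −0.04 for atrichoblasts and 0.01 for root cap. Of 25 trichoblast (root hair cell) genes 17 were lower by sign, with a median of −0.07. Of 18 genes of dividing cells and the stem cell niche 13 were higher, with a median of 0.11, among them WOX5 of the quiescent centre (0.23, adjusted p = 0.490). Of 23 genes of the ABA and osmotic response 15 were lower, with a median of −0.07. All 6 testable light harvesting genes were higher (median 0.11), some of which share a window. Against depth-matched nuclei the last 4 medians were −0.04, 0.05, −0.05 and 0.04, in the same order. The list medians of the endodermis, Casparian strip and suberin genes lay within the range of those of other cell types.

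**Figure D4:**
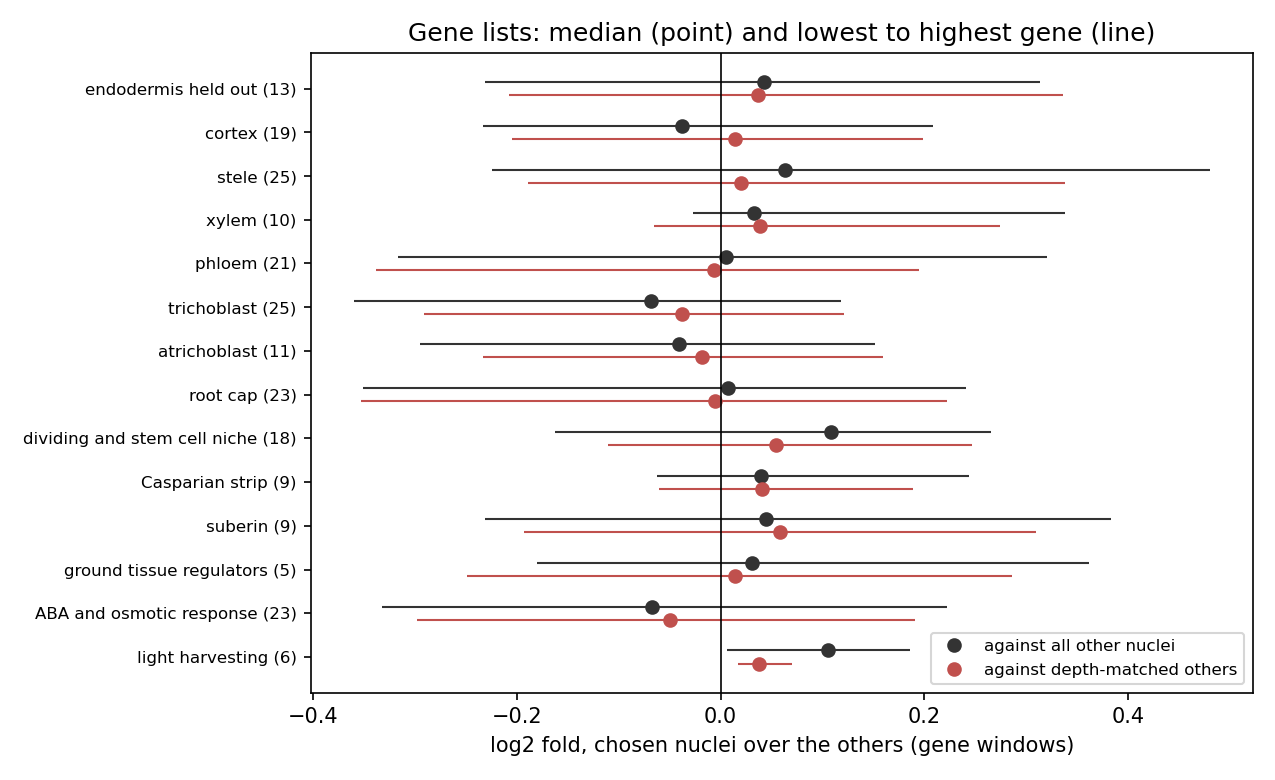
Log2 fold of the chosen over the other nuclei (x axis) in gene windows, as the median of each list (point) and its lowest to highest gene (line). The number of tested genes is in parentheses, and values are shown against all other nuclei and against depth-matched ones. The medians lie between −0.07 and 0.11, and the endodermis lists sit among those of other cell types.

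Nuclei chosen the same way by markers of the cortex or of the stele served as a further comparison, since these tissues lie on either side of the endodermis. Of the chosen nuclei, 5.24 to 6.03% per library were also in the top 5% for cortex markers and 5.95 to 7.66% in that for stele markers, and nuclei in more than 1 group were left out here. Against cortex-scored nuclei, 140 of 18265 regions were higher (0.766%) and 84 lower (0.46%), 1.23% in all. Of the 140 higher regions 99 matched organelle DNA, and without such regions the count was 42, of which 11 were higher and 31 lower. The 224 calls fell to 137 with control replicate 1 left out, to 107 with control replicate 2, to 111 with stress replicate 1 and to 141 with stress replicate 2. Against stele-scored nuclei no region passed (0 of 18266, with 1083 at an unadjusted p under 0.05), and 1 did without the regions matching organelle DNA. A difference between the chosen nuclei and nuclei picked by stele markers was thus not detectable over these regions at this depth. Among the named regions, AT1G51860 was at −1.05 against cortex-scored nuclei (adjusted p = 9.19e-06) and −0.25 against stele-scored ones (adjusted p = 0.927), AT4G13442 at −1.16 and −0.03, and AT1G47860 at 1.15 and 0.40. MIR166f was at 0.64 (adjusted p = 0.0233) and 0.35 (adjusted p = 0.803). All of these were named for a large difference in the same chosen nuclei, so their p-values here are not separate support. They include the largest difference from cortex-scored nuclei in each direction, and the other named regions are not given here.

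Osmotic stress was compared with control within the chosen nuclei, over 2 libraries each. Of 18329 regions 6 rose (0.0327%) and 38 fell (0.207%), 44 in all (0.24%). Groups without overlap were common, with both stress libraries above both controls at 19.7% of regions and below at 19.8%. The 6 rises were upstream of GH3.17, MYB74, MIR163 and the long non-coding RNA gene AT1G08613, and at the starts of TRI and PyrD. With DESeq2 in place of edgeR 0 regions passed as a rise and 32 as a fall, and DESeq2 gave no adjusted p at any of these 6 rises. The falls lay mostly in 1 block of chromosome 2 that matches organelle DNA.

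GH3.17 encodes an enzyme that conjugates the auxin IAA to an amino acid and so lowers free auxin. Its upstream region (chr1:9824106-9824693) had 17.8 and 26.0 CPM in the chosen nuclei of the control libraries and 54.4 and 62.2 CPM in those of the stress libraries. Both stress libraries lay above both controls, as naming required, with the largest rise of all called regions (log2 1.38, SE 0.28, adjusted p = 0.0108). In the other nuclei the same region rose by log2 0.69 (adjusted p = 0.0208). Its adjusted p in the chosen nuclei was 0.087 with control replicate 1 left out, 0.11 with stress replicate 1 and 0.256 with stress replicate 2, at log2 folds of 1.16, 1.48 and 1.29.

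MYB74 is a transcription factor gene known to respond to salt and drought, and its upstream region (chr4:2617154-2617967) had 29.3 and 32.9 CPM in control and 75.1 and 60.9 CPM in stress libraries. The log2 fold was 1.12 (SE 0.25, adjusted p = 0.0259), and 0.56 in the other nuclei (adjusted p = 0.0498). With stress replicate 1 left out the fold was 0.96 and no longer passed (adjusted p = 0.704), nor did it with control replicate 1 (0.088) or stress replicate 2 (0.0987) left out. Both regions rose in the other nuclei too, and the difference of the stress effects passed at neither. Their central bases are printed for the comparison of the 2 largest rises (chr1:9824300-9824499 and chr4:2617461-2617660, plus strand). GH3.17 holds no ACGTG, and MYB74 holds 2, 1 on each strand of a single CACGTG.
GH3.17: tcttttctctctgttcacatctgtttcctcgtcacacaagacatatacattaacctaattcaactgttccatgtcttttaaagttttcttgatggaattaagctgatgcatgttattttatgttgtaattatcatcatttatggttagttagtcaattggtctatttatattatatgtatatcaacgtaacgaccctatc
MYB74: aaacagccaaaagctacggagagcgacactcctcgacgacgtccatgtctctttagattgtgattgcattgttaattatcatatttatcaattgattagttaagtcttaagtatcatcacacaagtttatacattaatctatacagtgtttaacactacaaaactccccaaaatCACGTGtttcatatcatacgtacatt

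The upstream region of MIR163, a microRNA of methyltransferase transcripts, rose from 39.1 and 55.7 to 92.2 and 103.0 CPM (log2 1.02, SE 0.21, adjusted p = 0.014). TRI, a reductase gene, rose from 32.9 and 43.7 to 77.5 and 76.2 CPM (log2 0.98), AT1G08613 from 49.7 and 57.0 to 104.1 and 98.7 CPM (0.92), and PyrD, a deaminase of riboflavin synthesis, from 45.3 and 60.8 to 98.7 and 96.9 CPM (0.86, adjusted p = 0.0492). In each of these the stress libraries lay above the controls, as the rule for naming required. The other nuclei rose less by the point value, with log2 folds of 0.35, 0.38, 0.43 and 0.41. Since the regions were picked by their rise in the chosen nuclei, that gap is a description only. With stress replicate 1 or stress replicate 2 left out no region passed as a rise (0 in each), and none of the 16 regions named under stress held its call with every library left out in turn (0 of 16).

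Of the 38 falls, 33 matched organelle DNA, and so did 118 of the regions tested, whose median log2 was −1.01. All but 1 of the 119 such regions lie on chromosome 2 between 3244537 and 3510140, where the nuclear genome carries a copy of mitochondrial DNA, so counts there may come from either genome and cannot be told apart. Their share of ATAC counts in the chosen nuclei was 3.96% and 1.82% in the controls and 1.26% and 1.33% in the stress libraries, so control replicate 1 stood highest. The named falls of this kind were AT2G07643 (115, 58.9, 36.1 and 25.6 CPM in that order, log2 −1.46), AT2G07745 (−1.33), AT2G07723 (−1.29), AT2G07725 (−1.28) and AT2G07633 (−1.25). Without control replicate 1 the median of these regions was −0.46, and without control replicate 2 it was −1.44.

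Outside the organelle-like regions 5 falls were called, and all 5 are named, 4 of them after their values were seen. The start of AT2G16586 fell from 79.9 and 55.7 to 28.4 and 21.9 CPM (log2 −1.41, SE 0.26, adjusted p = 0.00676), with −0.64 in the other nuclei. The start of OLEO3, which encodes an oleosin of seed oil bodies, fell from 63.0 and 47.5 to 20.7 and 25.6 CPM (log2 −1.24, SE 0.28, adjusted p = 0.0361), with −0.36 in the other nuclei (adjusted p = 0.0578). AT1G43997 (−1.14), AT2G07664 (−1.11) and AT2G00340 near the top end of chromosome 2 (−1.08) were the remaining ones. The AT2G07664 region (chr2:3259210-3259872) was not itself organelle-like, but it lies inside the span of the organelle-like block. The central bases at AT2G16586, AT1G43997, AT2G07664 and AT2G00340 hold 0 ACGTG. Those of the rises at MIR163, TRI, AT1G08613 and PyrD hold 0 as well. The OLEO3 sequence (chr5:20819871-20820070, plus strand) is printed because it holds 5 ACGTG matches over both strands, more than any other region printed. Each CACGTG in it counts on both strands, so there are fewer sites than matches.
OLEO3: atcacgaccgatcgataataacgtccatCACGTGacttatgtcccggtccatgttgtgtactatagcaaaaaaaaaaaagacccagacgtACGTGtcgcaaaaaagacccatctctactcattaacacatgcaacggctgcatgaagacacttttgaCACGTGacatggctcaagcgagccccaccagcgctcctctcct

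**Figure D5:**
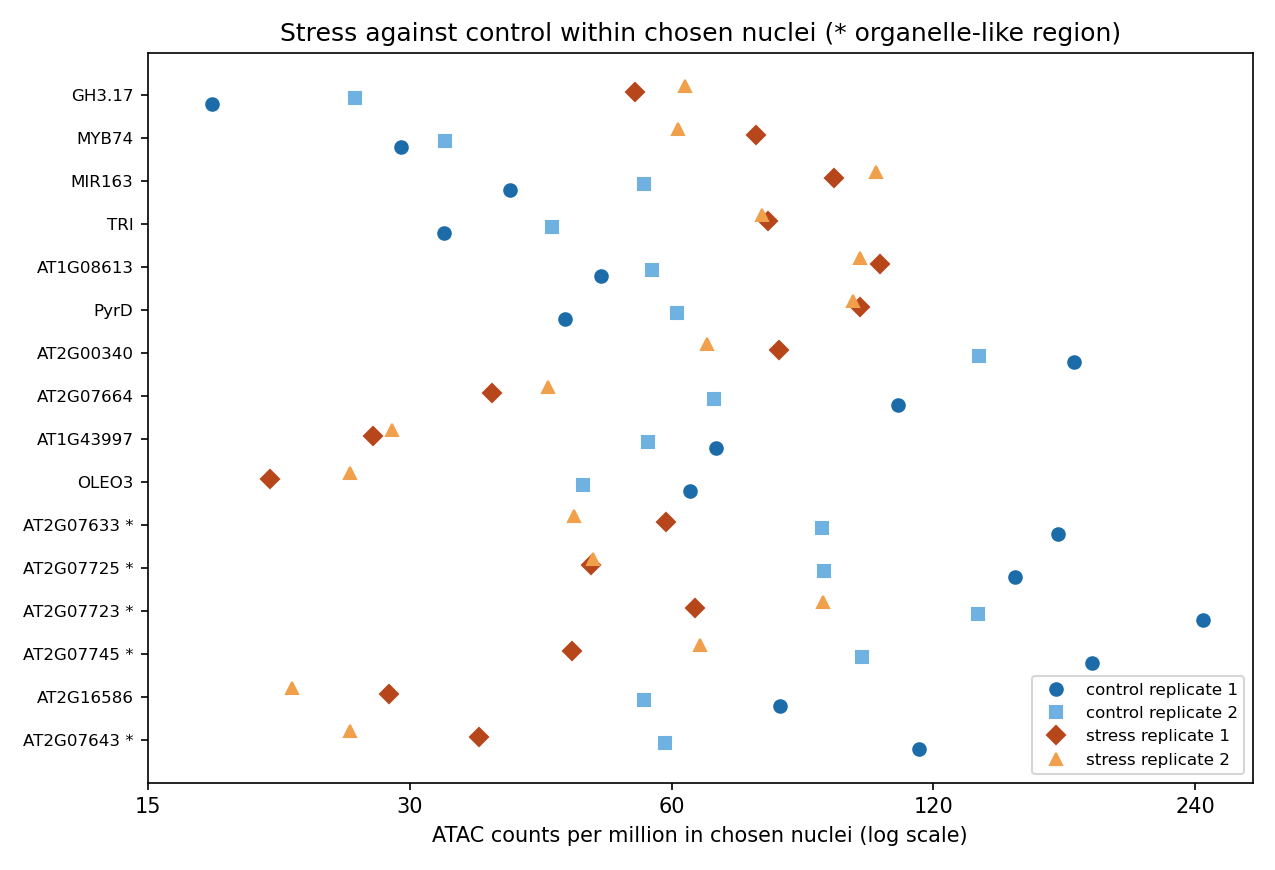
ATAC level in CPM (x axis, log scale) in the chosen nuclei of each library at the 6 regions that rose and the 10 named regions that fell under osmotic stress. Both stress libraries lie above both controls in the rises and below them in the falls, as the terms for naming them required. Control replicate 1 is the lower control in each of the rises and the higher control in each of the falls, organelle-like or not.

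The count of 44 rested on single libraries and on the marker peaks that entered the score. Leaving out control replicate 1 gave 23 and control replicate 2 gave 303, and leaving out stress replicate 1 gave 3 and stress replicate 2 gave 4, where the lone library left in a group was assumed to vary like the others. Without the regions matching organelle DNA it was 11 (0.0604%), of which 4 rose (0.022%) and 7 fell (0.0384%). The markers with a peak differed between control and stress libraries, so their nuclei were chosen through unlike peaks. With the score on regions shared by all 4 libraries the count was 3, of which 2 rose and 1 fell. The named stress regions are thus not shown to be changes within a like set of nuclei. The normalised profiles of the chosen nuclei correlated across regions at 0.783 between the controls and 0.856 between the stress libraries, and those of the other nuclei at 0.955 and 0.989. Replicates thus agreed less closely in the chosen nuclei, whose summed counts were far smaller.

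Over gene windows 16 rose (0.0677%) and 99 fell (0.419%) under stress, 0.487% in all, and 83 of the 99 falls contain an organelle-like region. The 115 calls became 430 with control replicate 2 left out, 45 with stress replicate 1 and 61 with stress replicate 2. With the score on regions shared by all 4 libraries the count of windows was 0. No gene of any list passed in the main choice of nuclei. Of the 9 suberin genes 8 were higher by sign, with a median log2 of 0.15, against 0.00 over all genes, and the median in the other nuclei was 0.05. MYB9, a regulator of suberin synthesis, had 43.5 and 54.5 CPM in control and 69.5 and 67.5 CPM in stress libraries (log2 0.47, SE 0.16, adjusted p = 0.321). KCS1 had 36.99 and 41.8 against 61.0 and 48.0 CPM (0.46, adjusted p = 0.406). In both genes the groups did not overlap, and neither passed. CYP86B1 (0.31), ABCG20 (0.28), ABCG2 (0.15), KCS2 (0.01), ABCG1 (0.00), FACT (0.00) and MYB41 (−0.05), a master regulator of suberin, made up the rest. The stress libraries lay above both controls at 4 of the 9 genes (MYB9, KCS1, CYP86B1 and ABCG20), while 19.9% of all windows did.

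Of the 9 Casparian strip genes 5 were higher by sign, with a median of 0.06 and −0.05 in the other nuclei. RBOHF was at 0.32 (SE 0.16, adjusted p = 0.572), CASP5 at 0.26, the dirigent protein gene DIR18 at 0.24, EXO70A1 at 0.07 and SGN3 at 0.06. PER72, a peroxidase, was at −0.06, the peptide gene CIF2 at −0.08, TPST, which sulfates that peptide, at −0.11, and DIR24 at −0.42. The genes of the strip therefore did not share a direction.

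Of the 23 ABA and osmotic response genes 16 were higher by sign in the chosen nuclei (median 0.13) and 20 in the other nuclei (median 0.09). The homeobox gene HB12 (0.49), the dehydrin gene COR47 (0.45) and RD29A (0.36) led, and the kinase gene SNRK2.2 (−0.62) was lowest, each short of the threshold. Cortex genes were on the higher side in both groups (16 of 19, median 0.17, and 17 of 19, median 0.11), and 12 of 18 genes of dividing cells were on the lower side (median −0.12).

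Whether the stress effect differed between chosen and other nuclei was tested directly. With all libraries no region had a stronger rise in the chosen nuclei, and 12 of 18330 had a stronger fall (0.0655%), with differences of −0.34 to −0.56 on the log2 scale. All 12 match organelle DNA and lie in the chromosome 2 block, where chosen nuclei had a larger share of counts than other nuclei in both controls (3.96 against 3.54% and 1.82 against 1.63%) and a smaller one in both stress libraries (1.26 against 1.47% and 1.33 against 1.45%). No region passed once control replicate 1 was left out (0 in either direction). Leaving out control replicate 2 left 0 stronger falls and 1 stronger rise, and leaving out stress replicate 2 gave 22 stronger falls. Without the organelle-like regions none passed (0 of 18211, with 885 at an unadjusted p under 0.05 in edgeR's test), so for the rises at GH3.17 and MYB74 a difference from the other nuclei was not detectable at this depth.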

How the data were processed

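ATAC and RNA were measured in the same nuclei of 4 libraries. Processing was by the authors, with Cell Ranger ARC 2.0.2 and TAIR10, and the submitters' processing notes also name Signac 1.7.0 and Seurat 4.3.0. Per library, the deposited matrix holds raw counts, not normalized, over genes and over peaks the authors called in that library alone, for all barcodes. The study's cell type assignments were not used here, and its quality filters that need fragments were not applied. More barcodes were kept here than the study kept as nuclei, so part of them were not among its nuclei. Of the ATAC values 73.7 to 75.9% were even, so they count cut sites, usually 2 per fragment. Peak rows were matched to the peak lists by order, which was checked by the rank correlation of overlapping peaks between libraries (0.940 to 0.992, at most 0.230 after a shift by 1 row). RNA rows have no names here.

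Peaks overlapping between libraries were merged into 27679 regions, and the 18340 with a peak in all 4 were compared. Gene positions came from RefSeq on TAIR10.1, and 77.0 to 79.6% of peaks overlapped a gene start (1 kb upstream to 200 bases downstream), and no more than 52.5% did once moved by 10 kb. A region was named by the nearest gene start among genes whose body or 2 kb upstream it overlaps. Organelle-like regions matched the mitochondrial or plastid genome with at least 95% identity over at least 50% of their length (blastn 2.17.0). No doublet caller was run, and leaving out the deepest 5% of nuclei is among the alternatives.

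Counts were summed per library over chosen and over other nuclei and tested with edgeR 4.0.16 (TMM scaling, low-count filter, quasi-likelihood test, Benjamini-Hochberg adjustment over all features, threshold 0.05) in R 4.3.3. Chosen and other nuclei were paired by library, stress and control were compared over 2 libraries each, and the difference of stress effects was an interaction term. The members and gene lists were chosen with earlier results of these data known. The values of 1 marker gene are not reported here. Named regions are the 12 largest rises and 6 largest falls (6 and 6 under stress and for the difference) past the threshold, with the same direction in all libraries and at least 20 CPM in the higher group. All tested Casparian strip and suberin genes are named under stress. In simulated counts with 200 changed features, the fit of chosen against other nuclei recovered 100% of 2-fold and 93% of 1.5-fold changes over 18330 regions. The changed features were not drawn from those with the lowest counts, and the simulated spread was that of the fit itself. The recovery therefore does not cover low-count features. The stress fit recovered 60% and 5% over 18329 regions, so it could miss most changes of the smaller size. Other software was DESeq2 1.42.0, Python 3.11.15, numpy 2.4.6, scipy 1.17.1 and pandas 2.3.3.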

Additional observations from a re-analysis of the deposited data

Results flagged for a closer look

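The test of the difference between the stress effects in the chosen and in the other nuclei passed the threshold at 12 regions. On the log2 scale (chosen minus other nuclei) the differences were −0.56 at AT2G05195, −0.51 at AT2G00510, −0.50 at AT2G07711, −0.46 at AT2G05225, −0.46 at AT2G07658 and −0.46 at AT2G07806. They were −0.41 at AT2G05215, −0.38 at AT2G00460, −0.38 and −0.37 at 2 regions of AT2G07638, −0.36 at AT2G07629 and −0.34 at AT2G05205. At AT2G05195 the chosen nuclei had 459.9 and 229.7 CPM in the control and 142.9 and 152.1 CPM in the stress libraries, and the other nuclei had 377.1, 208.0, 188.1 and 184.6 CPM. Both groups thus fell under stress, the chosen nuclei by more, with control replicate 1 highest in both. All 12 regions match organelle DNA. The part of control replicate 1 and of organelle DNA in these differences cannot be told apart.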

How the results depend on the processing

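Counts of called regions for chosen against other nuclei (37) were 6 with DESeq2, 5 for the top 2%, 221 for the top 10%, 338 and 13 for ATAC minimums of 1000 and 6000, 11 without the deepest 5% of nuclei, 133 with fragments, 21 with the score on shared regions, 98 against depth-matched nuclei, 0 without the library pairing (no replicate block), 0 against depth-matched nuclei without organelle-like regions, and 5 to 70 with 1 library left out. For gene windows (53) the values were 19 (DESeq2), 5 (top 2%), 250 (top 10%), 484 and 31 (minimums), 10 (deepest 5% out), 187 (fragments), 168 (depth-matched), 0 (no pairing) and 3 to 20. For RNA features (617) they were 350 (DESeq2), 1049 (depth-matched), 0 (no pairing) and 347 to 736. Stress regions (44) became 32 (DESeq2, 0 of them rises), 0 (top 2%), 111 (top 10%), 0 (minimum of 1000), 23 (deepest 5% out), 3 (shared regions), 20 (1 threshold for all libraries), 113 (peak width as offset), 11 (organelle-like regions out) and 3 to 303. Stress windows (115) became 16 (DESeq2), 0 (top 2%), 196 (top 10%), 0 and 12 (minimums), 63 (deepest 5% out), 0 (shared regions), 46 (1 threshold) and 45 to 430. With the replicate number as a block the stress counts were 61 regions and 56 windows. The numbers were not taken to pair libraries, since deviations of same-numbered libraries correlated at −0.02 and only 2 numbers exist. The 12 differences of stress effects became 1 (depth-matched), 0 (no pairing), 0 (organelle-like regions out) and 0 to 22. Against cortex-scored nuclei (224) there were 5 (no pairing), 42 (organelle-like regions out) and 107 to 141, and against stele-scored nuclei 1 (organelle-like regions out). None of the named called regions changed direction. Stress differences of uncalled genes that changed sign were CASP5 (−0.21, minimum of 1000), SGN3 (−0.13, top 10%, and −0.019, minimum of 1000), CIF2 (0.054, top 2%), TPST (0.065, top 10%, 0.22, minimum of 6000, 0.055, shared regions, and 0.12, 1 threshold), DIR18 (−0.075, top 2%), PER72 (0.056, minimum of 1000), EXO70A1 (−0.18, minimum of 1000), MYB41 (0.15, top 10%, and 0.41, minimum of 6000), CYP86B1 (−0.15, minimum of 6000), KCS2 (−0.22, top 2%, −0.10, top 10%, −0.096 and −0.082, minimums, and −0.00137, fragments), ABCG1 (−0.013, DESeq2, −0.021, top 10%, and −0.27, minimum of 6000), ABCG20 (−0.013, minimum of 6000) and FACT (−0.000677, DESeq2, −0.073, top 2%, −0.028, top 10%, −0.092 and −0.040, minimums, −0.14, shared regions, and −0.058, 1 threshold). With 1 library left out, ranges that crossed 0 were −0.44 to 1.04 for SGN3, −0.26 to 0.032 for TPST, −0.081 to 0.50 for DIR18, −0.16 to 0.034 for PER72, −0.23 to 0.37 for KCS2, −0.30 to 0.32 for ABCG1, −0.069 to 0.34 for ABCG2 and −0.15 to 0.14 for FACT under stress, and −0.14 to 0.010 for the second CASP4 region and −0.0063 to 0.17 for ASFT as left-out markers. The alternatives without organelle-like regions were chosen after seeing the data. The causes of these changes were not tested.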
